A study of Homo sapiens with 12 samples.

Results

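The S100 genes encode small calcium-binding proteins, and 10 of them were followed here across 2 pancreatic cancer cell lines in which focal adhesion kinase (FAK) was knocked down: S100A2, S100A4, S100A6, S100A8, S100A9, S100A10, S100A11, S100A14, S100A16 and S100P. Every probe that the array table assigns to one of these names was taken, with no use of its values, which gave 12 probes of 10 genes, out of 47228 probes with 34599 names. The 10 genes themselves were chosen with earlier results of these data known. S100A4 and S100A10 had 2 probes each and the other genes had 1. All 12 probes passed the filter on dim probes, but S100A8 was detected on 4 of the 12 arrays, and S100A9 and S100P on 6, so these 3 passed through Capan-1 alone.

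The 2 lines, Capan-1 and MIA PaCa-2, were established from human pancreatic ductal adenocarcinoma (PDAC) and were profiled on Illumina HumanHT-12 arrays. Cells carried a doxycycline-inducible hairpin in a pLKO.1 tet-on backbone, either a scrambled control (shCtrl) or a hairpin against FAK, sh1209 or sh1319, and the question was how gene expression differs once FAK is lowered. The 6 groups, cell line by hairpin, had 2 arrays each, 12 in all. In every group, shCtrl included, cells were given doxycycline at 50 ng/ml over 96 hours and stayed under puromycin (1.5 ug/ml in Capan-1, 3.5 ug/ml in MIA PaCa-2), so no group shows cells without these drugs. The Capan-1 labels spell one hairpin shFAK1319, which was read as sh1319. Each hairpin and cell line stands for a stable puromycin-resistant line, and whether both arrays of a group represent independent cultures is not given in the sources used here. The p-values therefore measure only the spread between these arrays, which may be technical. In bulk RNA, fewer cells that express a gene and less RNA per cell cannot be told apart.

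S100 proteins carry a pair of EF-hand motifs, mostly form dimers, and on binding calcium expose a surface that holds partner proteins such as annexins or cytoskeletal proteins. Some members, S100A8, S100A9, S100A4 and S100P among them, also leave the cell and act on receptors such as AGER (RAGE) and TLR4. In PDAC the family is known for S100P and for S100A2, S100A4, S100A6 and S100A10, which have been followed as tumor markers, while S100A8 and S100A9 are best known from neutrophils and monocytes and from inflamed or differentiating epithelia. In the RefSeq annotation of GRCh38.p14, 9 of the 10 genes lie on chromosome 1 in the order S100A10, S100A11, S100A9, S100A8, S100A6, S100A4, S100A2, S100A16 and S100A14, with 47 coding genes, many of the epidermal differentiation complex, between S100A11 and S100A9. S100P lies on chromosome 4.

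The promoter windows of S100A8, S100A9 and S100P, which of the 10 genes had the largest differences between sh1209 and shCtrl in Capan-1, are shown with that of S100A10, which passed in both cell lines, so that windows with and without a TATA box match can be read side by side. Each window runs 5′ to 3′ on the gene's strand from 250 bases before to 50 after the annotated start, as given by RefSeq on GRCh38.p14. They are chr1:153391024-153391323 on the minus strand for S100A8 (window 2 of 3 annotated starts), chr1:153357604-153357903 on the plus strand for S100A9, chr4:6693628-6693927 on the plus strand for S100P and chr1:151993810-151994109 on the minus strand for S100A10. Capitals mark matches, on either strand, to 4 motifs. For the TATA box the letters searched were TATAAA. For SP1 they were GGGCGG and for TEAD they were GGAATG. The AP-1 motif was TGANTCA, in which N is any base. None of the motifs contains another.
S100A8: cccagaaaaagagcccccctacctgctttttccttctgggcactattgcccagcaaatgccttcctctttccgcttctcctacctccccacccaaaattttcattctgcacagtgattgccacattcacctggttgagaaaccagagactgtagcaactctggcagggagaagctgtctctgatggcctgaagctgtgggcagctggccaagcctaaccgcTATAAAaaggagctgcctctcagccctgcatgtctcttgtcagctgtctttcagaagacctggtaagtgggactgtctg
S100A9: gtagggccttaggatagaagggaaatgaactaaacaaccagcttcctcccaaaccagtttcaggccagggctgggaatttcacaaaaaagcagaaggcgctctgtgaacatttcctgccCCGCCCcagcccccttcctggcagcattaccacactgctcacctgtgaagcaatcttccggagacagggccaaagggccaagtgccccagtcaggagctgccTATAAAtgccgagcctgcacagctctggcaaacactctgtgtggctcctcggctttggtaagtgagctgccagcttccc
S100P: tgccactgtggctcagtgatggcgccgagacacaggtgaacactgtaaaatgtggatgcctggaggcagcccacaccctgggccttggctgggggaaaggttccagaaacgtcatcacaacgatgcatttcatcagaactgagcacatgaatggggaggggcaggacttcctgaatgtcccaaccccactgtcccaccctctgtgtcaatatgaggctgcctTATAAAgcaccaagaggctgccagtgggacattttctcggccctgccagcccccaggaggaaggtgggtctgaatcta
S100A10: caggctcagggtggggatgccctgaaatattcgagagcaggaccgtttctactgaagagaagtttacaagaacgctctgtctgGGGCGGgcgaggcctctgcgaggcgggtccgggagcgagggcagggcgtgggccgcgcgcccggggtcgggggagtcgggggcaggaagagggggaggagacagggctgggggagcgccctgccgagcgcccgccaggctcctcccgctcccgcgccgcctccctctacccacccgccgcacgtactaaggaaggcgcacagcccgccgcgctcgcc

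The TATAAA match lay at -29 to -24 in S100A8 window 2, at -29 to -24 in S100A9 and at -28 to -23 in S100P, counting the base before the start as -1. Of the 14 windows of the 10 genes, 5 windows of 4 genes held TATAAA, those of S100A4, S100A8, S100A9 and S100P, against 11.5% of all 35116 promoter windows of the same length. S100A2, which differed by -1.18 and -2.22 from shCtrl in Capan-1, held none in its 2 windows, and S100A4, which held one, passed in neither of those comparisons. GGGCGG was present in 5 windows of 5 genes (S100A6, S100A9, S100A10, S100A11 and S100A16), against 45.0% of all windows. GGAATG was found in both windows of S100A16 alone, against 4928 of the 35116 windows, and TGANTCA in 1 window, S100A2 window 2 at -52 to -46, against 7.71%. The GC content of the 14 windows ranged from 51.3% to 71.7%, lowest in an S100A8 window and highest in S100A10. These matches describe the letters of the windows and do not show that a factor binds there.

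**Figure D1:**
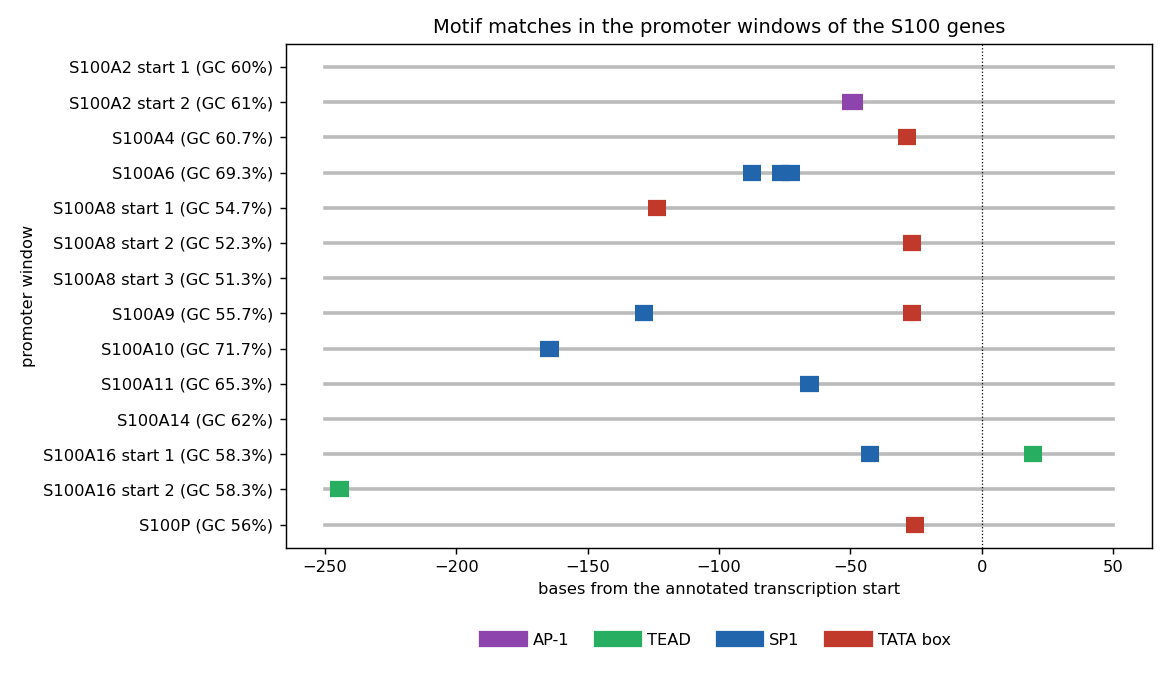
Positions of the motif matches in the 14 promoter windows of the 10 S100 genes, in bases from the annotated start (dotted line at 0), with the GC content of each window beside its name. Grey lines are the windows and coloured blocks the matches, drawn slightly wider than the motif. The TATA box matches of S100A4, S100A8 window 2, S100A9 and S100P sit between -31 and -23, and that of S100A8 window 1 at -126 to -121 reflects its overlap with window 2.

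PTK2, the gene of FAK, was read at its brighter probe alone. This probe fell in all 4 comparisons of a FAK hairpin with shCtrl (limma, adjusted p = 0.0036 at the highest). It fell to 65.4% of shCtrl with sh1209 and 29.2% with sh1319 in Capan-1, and to 21.1% and 17.9% in MIA PaCa-2. With median scaling the Capan-1 sh1209 value was -0.42 on the log2 scale and no longer passed (limma, adjusted p = 0.23). Array medians lay between 87.7 and 97.0, between 16259 and 19814 probes were detected per array, and replicate arrays had a correlation across probes of at least 0.991. Of 8 epithelial markers (CDH1, EPCAM, KRT8, KRT18, KRT19, CEACAM6, CLDN4 and MUC1), all 8 were detected in both arrays of each Capan-1 group and 3 or 4 in each MIA PaCa-2 group, where CDH1 was not detected. VIM was detected in every group, and the summed level of the mesenchymal markers was 15586 to 18565 in MIA PaCa-2 and 209 to 323 in Capan-1. This difference was that of VIM, the only marker of this list detected in both arrays of a MIA PaCa-2 group. CDH2 went the other way, detected in both arrays of each Capan-1 group and on no MIA PaCa-2 array. ZEB1 was not detected in any group, and FN1 was not detected in both arrays of any group. Linear levels in these sums are background-corrected intensities.

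Normalized values are given below on the log2 scale, after background correction with an offset of 16, which understates the change of dim probes. A probe was called detected on an array where its detection p-value was under 0.05, and passing means an adjusted p under 0.05 over the 24207 probes tested (limma, Benjamini-Hochberg). Normalized levels of S100 probes are compared between groups at the same probe and never between different probes. The marker sums add up different probes. The plot of levels by array shows all 12 probes.

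**Figure D2:**
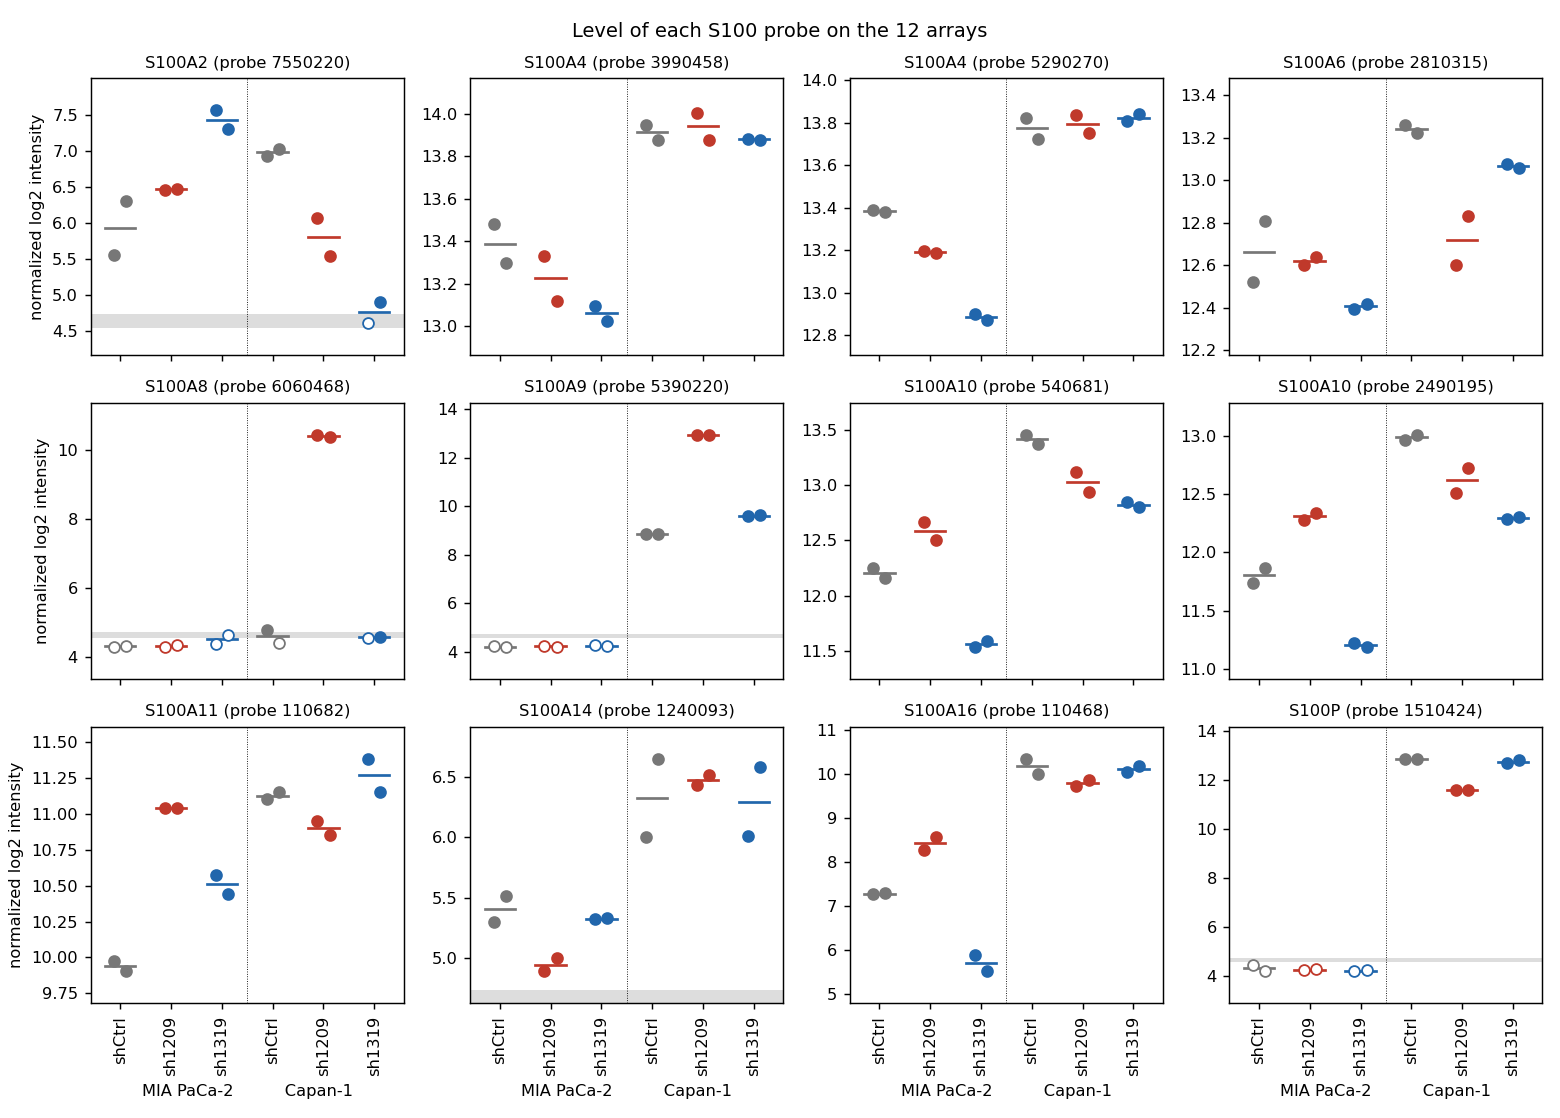
Normalized log2 intensity (vertical axis, scaled separately in each panel) of the 12 S100 probes in the 6 groups, with 1 point per array and a bar at the mean of the 2 arrays. Open points were not detected (detection p of 0.05 or more), and the grey band spans the lowest signal of a detected probe over the arrays. S100A8 reads 10.45 and 10.39 in the sh1209 arrays of Capan-1 and at most 4.80 in the others, S100A9 and S100P are open in all 6 MIA PaCa-2 arrays, and S100A16 separates the 3 MIA PaCa-2 groups.

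Counted by probe, 4 of the 12 S100 probes passed with sh1209 against shCtrl in MIA PaCa-2, all 4 higher, where 18.0% of all probes passed (9.05% higher, 8.99% lower). With sh1319 in that line 6 passed, 2 higher and 4 lower, against 24.3% of all probes (12.2% higher, 12.1% lower). In Capan-1, 7 passed with sh1209, 2 higher and 5 lower, against 16.8% of all probes (8.14% higher, 8.69% lower). With sh1319 in Capan-1, 4 passed, 1 higher and 3 lower, against 13.7% of all probes (6.95% higher, 6.77% lower). The median log2 difference of the 12 probes in these 4 comparisons was 0.01, -0.19, -0.30 and -0.05, and that of all probes lay between -0.01 and 0.01. With median scaling of the arrays in place of quantile normalization, 2 probes passed with sh1209 in MIA PaCa-2 (both higher), 4 with sh1209 in Capan-1 (2 higher, 2 lower) and 2 with sh1319 in Capan-1 (1 higher, 1 lower). None of the 10 genes moved the same way past the threshold in all 4 comparisons. Since the genes were chosen with earlier results of these data known, the shares of all probes describe the set and do not test it.

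**Figure D3:**
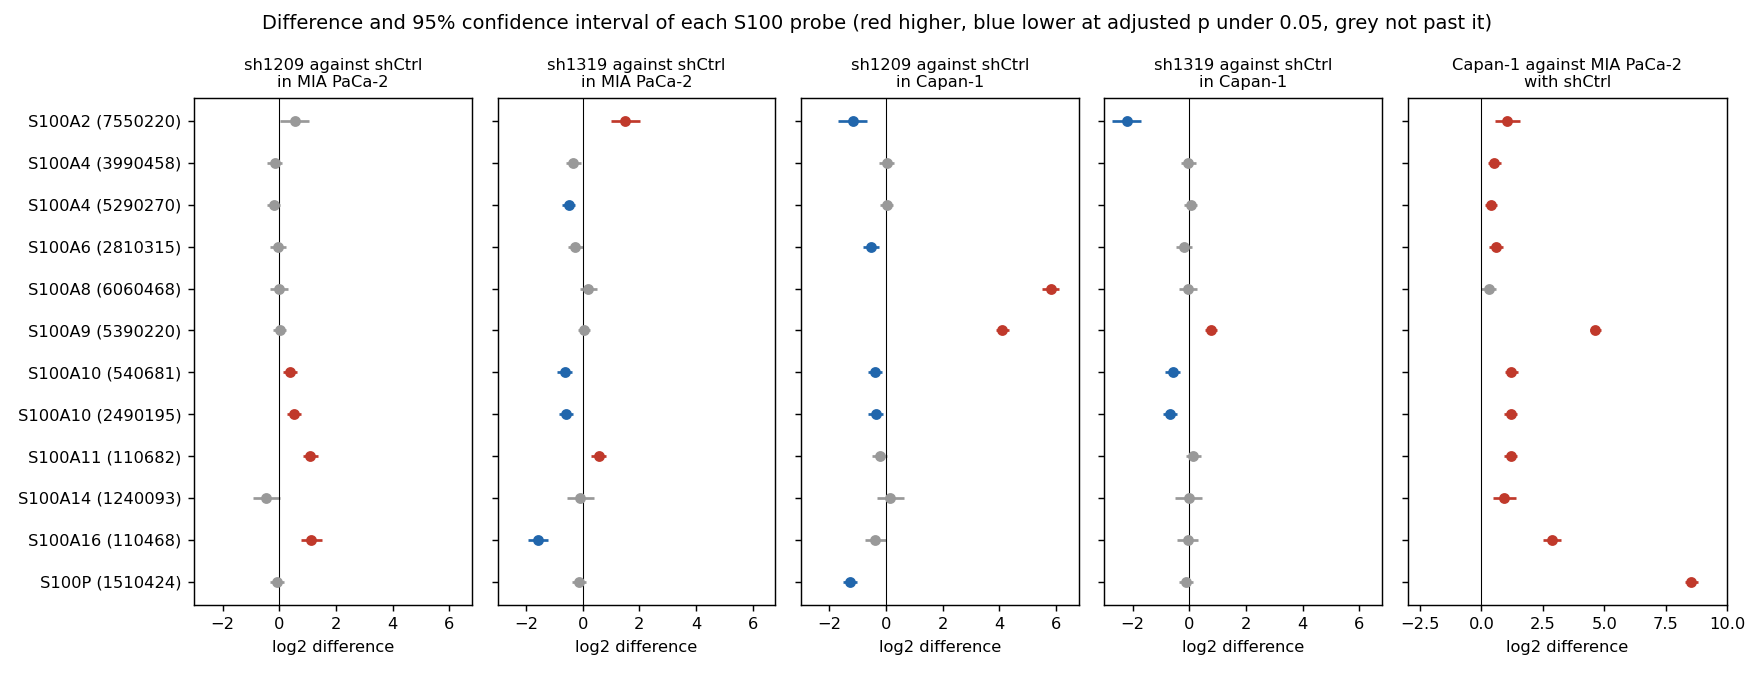
Log2 difference (horizontal axis) with its 95% confidence interval for each S100 probe in the 4 comparisons of a FAK hairpin with shCtrl and, on a wider axis at the right, between the cell lines with shCtrl. Red and blue points passed higher and lower. The rises of S100A8 and S100A9 with sh1209 in Capan-1, 5.81 and 4.10, are the farthest from 0 among the hairpin comparisons, and 11 of 12 points at the right lie above 0 in red.

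S100A8 and S100A9, which together form calprotectin, a secreted dimer that binds calcium and metal ions, rose sharply with sh1209 in Capan-1. The S100A8 probe (6060468) read 10.45 and 10.39 on the sh1209 arrays, 4.80 and 4.42 with shCtrl and 4.55 and 4.59 with sh1319. It was detected on 1 of 2 shCtrl arrays and on 1 of 2 sh1319 arrays, so that outside sh1209 it sat at the edge of detection. The sh1209 arrays were set apart from the other 4 by a gap many times the spread within any group.

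The difference for S100A8 was 5.81 on the log2 scale (SE 0.14; limma, adjusted p = 1.1e-09). Since shCtrl lay near the background, its size rested on the background correction: it was 3.91 without correction and passed there as well. Deposited intensities, before any processing, were 1319 and 1644 with sh1209 against 95.8 and 92.4 with shCtrl. With sh1319 the S100A8 difference was -0.04, with a 95% interval of -0.35 to 0.27 (limma, adjusted p = 0.92). In MIA PaCa-2 none of the 6 arrays detected S100A8, with values of 4.29 to 4.66.

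S100A9 (probe 5390220) was above background in every Capan-1 array. It read 8.84 and 8.87 with shCtrl, 9.58 and 9.64 with sh1319, and 12.95 and 12.95 with sh1209, and these 3 groups did not overlap. The rise with sh1209 was 17.2-fold (log2 4.10, SE 0.10; limma, adjusted p = 1.1e-09), rank 11 of 24207 probes. With sh1319 S100A9 rose by 1.70-fold (log2 0.76, SE 0.10; limma, adjusted p = 0.00066). In the 6 MIA PaCa-2 arrays S100A9 read 4.18 to 4.27 and was not detected.

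The hairpin with the larger S100A8 and S100A9 values in Capan-1 was the one that left more PTK2 signal. PTK2 read 8.48 ± 0.01 with sh1319, 9.65 ± 0.02 with sh1209 and 10.26 ± 0.13 with shCtrl (mean ± SD, n = 2 each). Between the hairpins S100A8 differed by 5.85 (limma, adjusted p = 1.1e-09; 3.92 without background correction), S100A9 by 3.34 (limma, adjusted p = 8.7e-09) and PTK2 by 1.16 (limma, adjusted p = 6.2e-05), each higher with sh1209. The part that the extent of knockdown plays in this difference was not tested.

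S100A8 and S100A9 are also leukocyte genes, so the leukocyte markers were read beside them. Of 8 such genes, PTPRC, CSF1R, MPO and CD3E, which define leukocyte classes, were not detected on any Capan-1 array, and CD14 and ITGAM were not detected in both arrays of any Capan-1 group. LYZ, the lysozyme gene that glandular epithelia also express, was detected on all 6 Capan-1 arrays and FCGR3A in both shCtrl arrays. Both LYZ probes fell with sh1209, by 1.29 and 1.83 on the log2 scale (limma, adjusted p = 3.5e-05 and 0.00019). The summed level of the list was 4968 to 5456 with shCtrl, 2193 to 2217 with sh1209 and 3258 to 3687 with sh1319. This sum was mostly LYZ, whose mean log2 level with shCtrl was 12.13 and 8.93 at its 2 probes. With sh1319 LYZ was lower too, with differences of -0.56 and -1.53 (limma, adjusted p = 0.012 and 0.00093), the former not past the threshold with median scaling.

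S100P, a secreted and cytosolic member that binds ezrin and IQGAP1 and is abundant in PDAC, moved the other way with sh1209 in Capan-1. Its probe (1510424) read 12.86 and 12.86 with shCtrl, 12.69 and 12.81 with sh1319 and 11.57 and 11.60 with sh1209. The sh1209 arrays lay below all other Capan-1 arrays. S100P fell by 1.28 on the log2 scale with sh1209 (SE 0.12; limma, adjusted p = 2.4e-05), which left 41.3% of the shCtrl level. With sh1319 the difference was -0.11, with a 95% interval of -0.37 to 0.14 (limma, adjusted p = 0.63). The hairpins differed by -1.16 (limma, adjusted p = 7.6e-05). None of the 6 MIA PaCa-2 arrays detected S100P (4.16 to 4.43).

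S100A10 binds annexin A2 at the membrane and, unlike its relatives, no longer depends on calcium. Its 2 probes gave the same picture: in MIA PaCa-2 it was higher with sh1209 and lower with sh1319, and in Capan-1 lower with both. Probe 540681 read 12.25 and 12.16 in MIA PaCa-2 with shCtrl, 12.67 and 12.50 with sh1209 and 11.53 and 11.59 with sh1319, with no overlap. In Capan-1 it read 13.46 and 13.37 with shCtrl, 13.12 and 12.94 with sh1209 and 12.84 and 12.80 with sh1319.

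With sh1319 S100A10 was lower past the threshold at both probes in both lines, to 64.2% and 66.0% of shCtrl in MIA PaCa-2 (limma, adjusted p = 0.0019 and 0.0025) and to 66.3% and 61.8% in Capan-1 (limma, adjusted p = 0.0065 and 0.0023). Probe 540681 in Capan-1 did not pass without shCtrl replicate 1 (-0.55; limma, adjusted p = 0.054). With median scaling both Capan-1 values (-0.52 and -0.56) and the MIA PaCa-2 value of probe 2490195 (-0.53) did not pass. The sh1209 values were smaller and near the threshold. In MIA PaCa-2 they were 0.38 and 0.51 (limma, adjusted p = 0.044 and 0.0098), neither past the threshold with median scaling, and the first did not pass without any 1 of the 6 MIA PaCa-2 arrays (0.30 to 0.47) while the second did not pass without shCtrl replicate 1 or sh1209 replicate 2 (0.45 at the lowest). In Capan-1 they were -0.39 and -0.37 (limma, adjusted p = 0.045 and 0.049), and neither passed without any 1 of the 6 Capan-1 arrays (-0.48 to -0.26). Neither sh1209 value in Capan-1 passed with median scaling or in a fit of Capan-1 alone. Probe 2490195 there also did not pass with the replicate number as a block. Between the hairpins in MIA PaCa-2, S100A10 was higher with sh1209 by 1.02 at probe 540681 and 1.11 at probe 2490195 (limma, adjusted p = 7.7e-05 and 3.5e-05).

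S100A11, an annexin A1 partner, rose with both hairpins in MIA PaCa-2. Its probe (110682) read 9.98 and 9.90 with shCtrl, 10.58 and 10.44 with sh1319, and 11.04 on both sh1209 arrays. The 3 groups did not overlap, and the equal sh1209 values came from equal ranks under quantile normalization. The rise was 2.14-fold with sh1209 (SE 0.12 on the log2 scale; limma, adjusted p = 7.1e-05) and 1.49-fold with sh1319 (limma, adjusted p = 0.0042). In Capan-1 the differences were -0.22 and 0.14 and did not pass, with 95% intervals of -0.48 to 0.04 and -0.12 to 0.40. RefSeq lists 10 pseudogenes of S100A11, and the probe's letters were not used here, so signal from them could not be checked.

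S100A16, an epithelial member whose calcium binding rests mainly on one EF-hand, moved in opposite directions with the 2 hairpins in MIA PaCa-2. There its probe (110468) read 7.27 and 7.29 with shCtrl, 8.27 and 8.57 with sh1209 and 5.89 and 5.52 with sh1319. The sh1209 arrays lay above shCtrl and the sh1319 arrays below it. S100A16 rose by 2.20-fold with sh1209 (log2 1.14, SE 0.16; limma, adjusted p = 0.00057) and fell to 33.5% of shCtrl with sh1319 (log2 -1.58, SE 0.16; limma, adjusted p = 3.2e-05).

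The hairpins differed by 2.71 at S100A16 in MIA PaCa-2 (limma, adjusted p = 5.5e-07), while PTK2 differed there by 0.24 (limma, adjusted p = 0.17). Without background correction the S100A16 difference was 1.73 and the change with sh1319 was -0.87, and both passed. In Capan-1 S100A16 read 9.73 to 10.34 over all 6 arrays and did not pass, with 95% intervals of -0.74 to -0.02 for sh1209 and -0.43 to 0.30 for sh1319. The cell line difference in the response of S100A16, was 0.00 (95% interval -0.44 to 0.44), an average over the hairpins that hides their opposite directions in MIA PaCa-2.

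S100A14, the neighbour of S100A16 on the chromosome and a binding partner of S100A16 in epithelial cells, passed in none of the 4 comparisons. Its values ran from 4.89 to 5.51 in MIA PaCa-2 and from 5.9996 to 6.65 in Capan-1. The lowest adjusted p was 0.18 (limma), for -0.46 with sh1209 in MIA PaCa-2, with a 95% interval of -0.93 to 0.01.

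S100A2, a nuclear member known from the basal cells of epithelia, moved in opposite directions in the 2 cell lines. In Capan-1 its probe (7550220) read 6.92 and 7.03 with shCtrl, 6.06 and 5.54 with sh1209 and 4.61 and 4.91 with sh1319, 1 of the last 2 not detected. The 3 groups were fully separate. In MIA PaCa-2 it read 5.55 and 6.31 with shCtrl, 6.46 and 6.47 with sh1209 and 7.56 and 7.30 with sh1319, and the shCtrl arrays were the most spread of these.

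In Capan-1 S100A2 fell with both hairpins, by 1.18 with sh1209 (SE 0.23; limma, adjusted p = 0.0053) and by 2.22 with sh1319 (SE 0.23; limma, adjusted p = 0.00014). In MIA PaCa-2 it rose 2.82-fold with sh1319 (limma, adjusted p = 0.00061), while with sh1209 the difference was 0.54 and did not pass (limma, adjusted p = 0.15). The fall with sh1209 in Capan-1 did not pass without sh1209 replicate 2 (-0.91; limma, adjusted p = 0.065), and the MIA PaCa-2 sh1209 difference passed without shCtrl replicate 2 (0.92; limma, adjusted p = 0.019). Without background correction the sh1319 differences were -1.0015 in Capan-1 and 0.86 in MIA PaCa-2, both past the threshold.

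S100A4, which binds the non-muscle myosin heavy chain MYH9 and is known from motile and mesenchymal cells, gave signals near the top of the scale. Its deposited intensities were 9033.2 to 16725.1 at probe 3990458 and 7916.4 to 16504.5 at probe 5290270, close to the brightest probe of an array, 14797.7 to 19275.4, where a difference may be compressed. With sh1319 in MIA PaCa-2 probe 5290270 read 12.90 and 12.87 against 13.39 and 13.38 with shCtrl, a fall of 0.50 (SE 0.11; limma, adjusted p = 0.0046). Probe 3990458 differed by -0.33 there (limma, adjusted p = 0.075), so the call rested on 1 of 2 probes, and with median scaling it was not past the threshold. In Capan-1 the 4 differences lay between -0.03 and 0.05.

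S100A6, calcyclin, which binds CACYBP and SUGT1, fell with sh1209 in Capan-1. It read 13.26 and 13.22 with shCtrl, 12.60 and 12.83 with sh1209 and 13.08 and 13.06 with sh1319. The sh1209 arrays lay below the others. The difference was -0.52 (SE 0.13; limma, adjusted p = 0.015), and it did not pass without shCtrl replicate 1, shCtrl replicate 2 or sh1209 replicate 1 of Capan-1 (-0.54 to -0.41), nor with median scaling (-0.54). The other 3 differences, -0.26 to -0.04, did not pass.

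Set against each other, the hairpins differed at 5 of the 12 probes in MIA PaCa-2, against 22.6% of all probes (11.5% higher with sh1209, 11.2% lower). In Capan-1 they differed at 4, against 11.3% of all probes (5.81% higher, 5.47% lower). In the first line these were both S100A10 probes, S100A11 (0.53; limma, adjusted p = 0.007) and S100A16, higher with sh1209, and S100A2 (-0.96; limma, adjusted p = 0.011), lower with sh1209. In the other they were S100A8, S100A9 and S100A2 (1.04; limma, adjusted p = 0.015), higher with sh1209, and S100P, lower. S100A2 did not pass between the hairpins in either line without replicate 1 of sh1209 or sh1319 of that line (0.78 in Capan-1 and -0.83 in MIA PaCa-2 at the nearest to 0), nor S100A11 in MIA PaCa-2 without sh1319 replicate 2 (0.46) or with median scaling (0.35). Both hairpins of a line were compared with the same shCtrl arrays, so their differences from shCtrl are not independent.

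**Figure D4:**
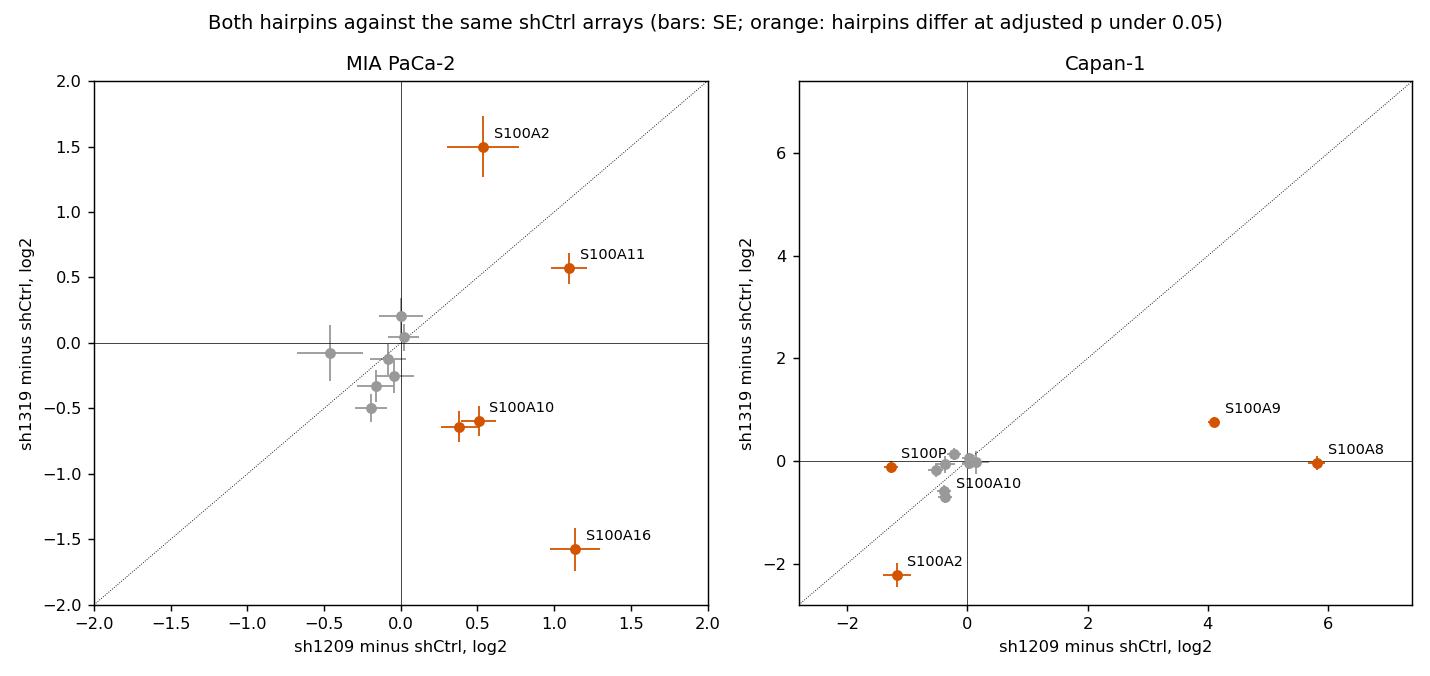
Log2 difference from shCtrl with sh1209 (horizontal axis) and sh1319 (vertical axis) for the 12 S100 probes in each cell line, with bars of 1 SE and the line of equal values dotted. Orange probes differed between the hairpins and are named, as is S100A10 in both panels. S100A16 and S100A10 lie to the right of 0 and below it for MIA PaCa-2, and S100A8 and S100A9 lie far to the right for Capan-1.

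Averaged over both hairpins and both lines, 7 of 12 probes passed in the combined knockdown, 3 higher and 4 lower, against 25.2% of all probes (12.5% higher, 12.7% lower), and 4 passed with median scaling, 3 higher and 1 lower. Higher were S100A8 (1.49; limma, adjusted p = 4.8e-07), S100A9 (1.23; limma, adjusted p = 1.6e-07) and S100A11 (0.40; limma, adjusted p = 0.0021). Lower were S100P (-0.40; limma, adjusted p = 0.0017), both S100A10 probes (-0.31 and -0.29) and S100A6 (-0.25; limma, adjusted p = 0.036). S100A6 did not pass without any 1 of 10 of the 12 arrays (-0.26 to -0.18), the exceptions being MIA PaCa-2 shCtrl replicate 1 and Capan-1 sh1209 replicate 2, and S100A2 (-0.34) passed without MIA PaCa-2 shCtrl replicate 1 (-0.53; limma, adjusted p = 0.013). These averages hide the pattern above: S100A8 came from 1 of 4 comparisons, S100A9 from 2, S100P from 1 and S100A11 from 2. None passed when the replicate arrays were averaged first and the spread was taken between hairpins (0 of 12, and 0 at an unadjusted p under 0.05).

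The response differed between the cell lines, MIA PaCa-2 minus Capan-1, at 6 of 12 probes, against 14.4% of all probes (7.24% higher, 7.11% lower). Of these, S100A8, S100A9 and S100P passed the filter through Capan-1 alone and stayed at background in MIA PaCa-2. Their p-values and their part in the count of 6 are therefore no independent support. S100A2 had the highest difference, 2.71 (SE 0.29; limma, adjusted p = 8.1e-05), with a mean response above 0 in MIA PaCa-2 and below 0 in Capan-1. S100A8 (-2.78; limma, adjusted p = 1.2e-06) and S100A9 (-2.40; limma, adjusted p = 3.5e-07) were lower in MIA PaCa-2, where neither was detected. Without background correction S100A2 gave 1.37 and S100A8 -1.91, both past the threshold. S100A11 (0.88; limma, adjusted p = 0.0021) and S100P (0.59; limma, adjusted p = 0.018) were higher, as was S100A10 at probe 2490195 (0.49; limma, adjusted p = 0.04) though not at probe 540681 (0.36; limma, adjusted p = 0.13). The S100P value rested on Capan-1 alone and did not pass without MIA PaCa-2 shCtrl replicate 2 or Capan-1 shCtrl replicate 1 or 2 (0.47 to 0.59), nor with median scaling (0.54). The S100A10 value did not pass without any 1 of 11 of the 12 arrays, the exception being Capan-1 sh1209 replicate 2 (0.42 to 0.55).

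With shCtrl the lines differed in nearly the whole set. Of the 12 probes, 11 were higher in Capan-1 than in MIA PaCa-2, against 42.1% of all probes in either direction (19.6% higher, 22.5% lower). The median difference of the 12 probes was 1.12, beside -0.04 for all probes. S100P stood out, at least 285-fold higher in Capan-1, since it was not detected in MIA PaCa-2. S100A9 was at least 17.7-fold higher. Their fitted log2 differences were 8.55 and 4.64 (limma, adjusted p = 5.1e-13 and 1.4e-11). Both probes passed the filter through Capan-1 alone, which favours a higher value there. Their p-values and their part in the count of 11 are therefore no independent support. Both bounds were set against the lowest signal of a detected probe in the MIA PaCa-2 arrays, and without background correction the log2 differences were 6.43 and 2.69.

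Among genes measured in both lines, S100A16 was 7.38-fold higher in Capan-1 (limma, adjusted p = 4.1e-08), S100A10 2.32-fold and 2.27-fold at its 2 probes, S100A11 2.28-fold, S100A2 2.07-fold and S100A14 1.89-fold. S100A6 (1.49-fold; limma, adjusted p = 0.0029) and S100A4 (1.44-fold and 1.31-fold; limma, adjusted p = 0.0042 and 0.011) differed least. S100A8 was not measured in both lines, being detected on no shCtrl array of MIA PaCa-2 and on 1 of 2 in Capan-1. Its difference, 0.30 (limma, adjusted p = 0.12), did not pass and lies between readings near background. With median scaling the S100A6 and both S100A4 differences did not pass (0.24 to 0.40 on the log2 scale). S100A14 did not pass without Capan-1 shCtrl replicate 2 (0.60; limma, adjusted p = 0.052), and S100A4 probe 5290270 did not pass without Capan-1 shCtrl replicate 1 (0.34; limma, adjusted p = 0.072). Without Capan-1 shCtrl replicate 2, which did not detect S100A8, the S100A8 difference was 0.49, again between readings near background.

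Knockdown altered the order of the lines for some members. S100A2 was highest in MIA PaCa-2 with sh1319 (7.30 and 7.56), above Capan-1 with shCtrl (6.92 and 7.03), and lowest in Capan-1 with sh1319. For S100A11, MIA PaCa-2 with sh1209 (11.04 on both arrays) lay between Capan-1 with shCtrl (11.10 and 11.15) and Capan-1 with sh1209 (10.95 and 10.85), with no overlap. For S100A6, MIA PaCa-2 with sh1209 and with shCtrl overlapped Capan-1 with sh1209. For S100A16, S100A4, S100A14 and S100A10 probe 540681 every Capan-1 group stayed above every MIA PaCa-2 group, while S100A10 probe 2490195 overlapped between Capan-1 with sh1319 (12.28 and 12.30) and MIA PaCa-2 with sh1209 (12.28 and 12.34).

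Over the 12 arrays, with each probe centred within its cell line, S100A8 and S100A9 followed each other at a Pearson correlation of 0.98, and S100P ran opposite to both at -0.98. The 2 S100A10 probes correlated at 0.95 and the S100A4 probes at 0.83, and S100A16 followed the S100A10 probes at 0.84. These are descriptions over arrays that share groups, and the first 3 rest on the sh1209 arrays of Capan-1.

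The probes of other genes most like S100A8 were those of OLFM4, a secreted glycoprotein of glandular epithelia (0.995), TEX101, a membrane-anchored glycoprotein known from testis (0.994), and SEMG1, a protein of seminal fluid (0.994). Their differences from shCtrl in Capan-1 with sh1209 were 2.85, 5.87 and 2.10 on the log2 scale, a description with no test, since these genes were chosen on the same arrays. Most like S100A9 were ATP10B, a phospholipid flippase (0.998), C6ORF58 (0.996) and GPR98, an adhesion receptor (0.996), with differences there of 3.61, 2.51 and 1.42. Most like S100A2 were COCH (0.947), ADA, adenosine deaminase (0.930), and HNMT, which breaks down histamine (0.922). With sh1319 against shCtrl in MIA PaCa-2, COCH differed by 0.71, ADA by 0.71 and HNMT by 0.48. In Capan-1 the values were -1.20, -0.57 and -1.31.

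Among 10 other S100 genes, 5 were measured well enough to test, with 8 probes, while S100A1, S100A7A, S100A12, S100B and S100G were not. In MIA PaCa-2, 1 of the 8 probes passed higher and 2 lower with sh1209 (9.05% and 8.99% of all probes), and 1 higher and 4 lower with sh1319 (12.2% and 12.1%). In Capan-1, 1 passed higher and 3 lower with sh1209 (8.14% and 8.69%), and 0 higher and 3 lower with sh1319 (6.95% and 6.77%). The medians were -0.34, -0.51, -0.19 and -0.28, beside -0.01 to 0.01 over all probes. S100A5, the neighbour of S100A6, was lower in all 4 comparisons, differing by -1.26 and -0.88 in Capan-1 and -1.16 and -2.26 in MIA PaCa-2 (limma, adjusted p = 0.0026 at the highest). S100A3 fell by 1.26 with sh1209 and by 0.90 with sh1319 in MIA PaCa-2 (limma, adjusted p = 2.4e-05 and 0.00019), and S100Z rose there by 1.60 and 1.10 (limma, adjusted p = 4.6e-05 and 0.00044).

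S100A13, which takes part in the release of fibroblast growth factor without a signal peptide, fell at 2 of its 4 tested probes in MIA PaCa-2 under sh1319 (-0.745 and -0.81) and with both hairpins in Capan-1. In Capan-1 these were -0.82 and -0.90 with sh1209 and -0.54 and -0.42 with sh1319. With median scaling both sh1319 values and the first sh1209 value (-0.65; limma, adjusted p = 0.052) did not pass. S100A7, psoriasin, another gene of differentiating epithelium, rose by 0.75 in Capan-1 with sh1209 (limma, adjusted p = 0.002).

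The binding partners were represented by 14 genes with 25 probes. In MIA PaCa-2, 7 probes passed higher and 0 lower with sh1209 (9.05% and 8.99% of all probes), and 11 higher and 3 lower with sh1319 (12.2% and 12.1%). In Capan-1 the counts were 6 higher and 1 lower with sh1209 (8.14% and 8.69%), and 3 and 2 with sh1319 (6.95% and 6.77%). The medians were 0.33, 0.29, 0.12 and 0.01, beside -0.01 to 0.01 over all probes, and with median scaling 3, 9, 5 and 3 probes passed higher and 0, 2, 0 and 0 lower.

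In MIA PaCa-2 ANXA5 rose by 1.02 with sh1209 and 0.99 with sh1319 (limma, adjusted p = 2e-04 and 0.00015), ANXA11 by 0.60 and 0.56 at 2 probes with sh1209 and by 0.58 to 0.65 at 3 probes with sh1319, and ANXA1, the partner of S100A11, by 0.60 with sh1319 (limma, adjusted p = 0.0046). ANXA2, the partner of S100A10, passed at 1 of 3 probes with sh1209 in MIA PaCa-2 (0.38; limma, adjusted p = 0.03) and at none in the other 3 comparisons with shCtrl. ANXA6 rose at 1 of 2 probes, by 0.88 with sh1319 in MIA PaCa-2. Its Capan-1 values, 0.51 with sh1209 and 0.53 with sh1319, passed as well, but not without background correction. PLAT, tissue plasminogen activator, which binds S100A10 at the surface, rose with sh1209 in both lines, by 1.01 and 0.75 (limma, adjusted p = 0.00023 and 0.0022), and by 0.47 with sh1319 in MIA PaCa-2. With median scaling the ANXA2 value, both ANXA11 values with sh1209, 1 of the 3 with sh1319 and the PLAT value with sh1319 did not pass.

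MYH9, the partner of S100A4, rose at both probes with sh1319 in MIA PaCa-2, by 1.24 and 1.28 (limma, adjusted p = 5.2e-05 and 2.9e-05). In Capan-1 it rose by 0.64 and 0.46 with sh1209, the latter not with median scaling, and by 0.55 at 1 probe with sh1319. PPFIBP1, a liprin that binds S100A4, rose in MIA PaCa-2 at 1 of 3 probes with sh1209 (0.84) and 2 with sh1319 (0.77 and 1.0013). AHNAK, a large scaffold protein that binds S100A10 with annexin A2, passed in opposite directions at 2 of 3 probes with sh1319 in Capan-1 (0.67 and -0.55), the latter not with median scaling. CACYBP, the calcyclin-binding protein, fell with sh1319 in MIA PaCa-2 at both probes, by 1.45 and 1.30 (limma, adjusted p = 2.9e-05 and 4.1e-05). In Capan-1 it fell at 1 probe with sh1319 (-0.53), and SUGT1 fell with sh1209 (-0.50), neither with median scaling. Of the S100P partners, IQGAP1 rose by 1.00 in Capan-1 with sh1209 (limma, adjusted p = 0.00015), where S100P fell, and EZR passed in MIA PaCa-2 alone, at 0.43 with sh1209 and -0.35 with sh1319, neither with median scaling. TRPV6, a calcium channel that S100A10 and annexin A2 bring to the membrane, rose by 0.95 in Capan-1 with sh1209 (limma, adjusted p = 0.00037).

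The receptors had 3 of 4 genes tested, AGER, TLR4 and BSG, and CD36 was not. AGER passed in none of the 4 comparisons. TLR4 fell by 0.57 in Capan-1 with sh1209 (limma, adjusted p = 0.035), where S100A8 and S100A9 rose, and BSG rose by 0.49 with sh1209 in MIA PaCa-2 (limma, adjusted p = 0.018). Neither passed with median scaling.

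**Figure D5:**
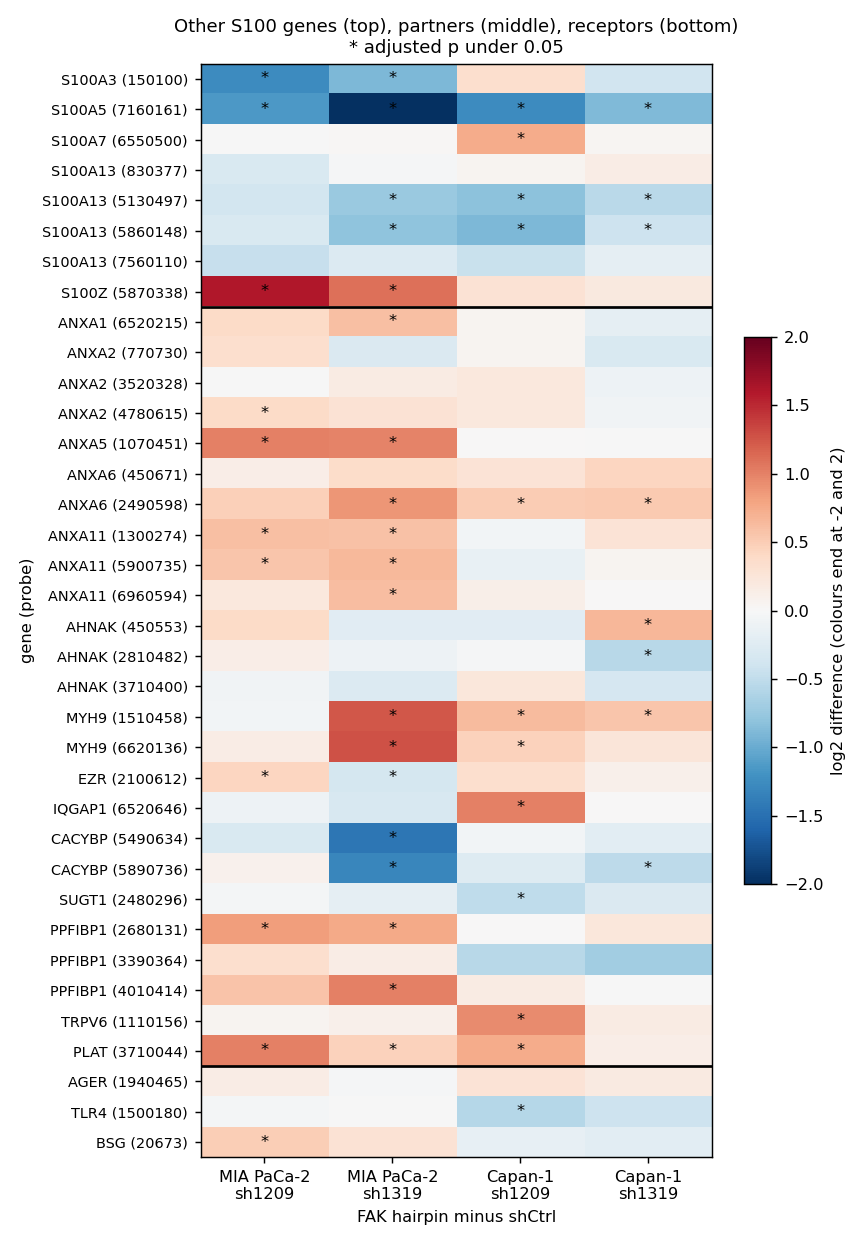
Log2 difference between a FAK hairpin and shCtrl (colour, ending at -2 and 2) for each tested probe of the other S100 genes, the binding partners and the receptors, in the 4 comparisons. Asterisks mark an adjusted p under 0.05. S100A5 is blue in all 4 columns, and 11 of the 25 partner probes are higher past the threshold with sh1319 in MIA PaCa-2.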

How the data were processed

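Total RNA of the 12 samples was amplified, labelled with biotin and hybridised to Illumina HumanHT-12 v4 arrays. The authors deposited 1 table that gives, for every probe and array, a linear intensity and a detection p-value, neither normalized nor background-subtracted as far as the values show. The submitters' processing notes name GenomeStudio 2011.1. The table also held 28 empty columns, and 92 of its 47320 probes were spike-in controls that were left out after background correction. The deposited names do not give the letters of the probes, so cross-hybridisation was not checked.

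Background was corrected with nec in limma 3.58.1 (R 4.3.3; normexp from the detection p-values, offset 16), followed by quantile normalization and log2. The filter kept 24207 of 47228 probes, those detected (p under 0.05) on 2 or more of the 12 arrays. lmFit and eBayes fitted the 6 group means (6 residual degrees of freedom), with Benjamini-Hochberg adjustment within each of 9 comparisons. The number of arrays limits the precision. A fold against a group with no detected array is a lower bound against the lowest detected signal of each array.

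The members and the lists (other S100 genes, binding partners, receptors, fused-type S100 genes, neighbours on chromosome 1, and epithelial, mesenchymal and leukocyte markers) were chosen with earlier results of these data known. The result of 1 gene of the partner list is not reported here, and the list's counts and medians leave it out. All member probes and the brighter PTK2 probe were named, list genes by counts with values or their range for those that passed in a comparison of a FAK hairpin with shCtrl, and for the 3 member probes with the largest combined or cell line coefficient the 3 most similar probes. The 10 genes matched RefSeq by symbol for promoter windows. A comparison of protein sequences was not made. The fit was tested on simulated data. The 11 alternatives were no background correction, an offset of 50, median scaling, no filter, a stricter filter (detection p under 0.01 on 6 arrays), the replicate number as a block, array weights, each array left out, 1 cell line only, the methods' t-test and averaged replicates.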

Additional observations from a re-analysis of the deposited data

Results flagged for a closer look

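Groups held 2 arrays, too few to test any array as an outlier. The response to the FAK hairpins, averaged over sh1209 and sh1319, differed between MIA PaCa-2 and Capan-1 for 6 of the 12 S100 probes by the interaction in the limma fit. Of all probes 14.4% passed in this comparison. None of the 12 passed with replicates averaged first. MIA PaCa-2 minus Capan-1 was 2.71 for S100A2 (adjusted p = 8.1e-05), with differences from shCtrl above 0 in MIA PaCa-2 and below 0 in Capan-1 for both hairpins. It was -2.78 for S100A8 (adjusted p = 1.2e-06) and -2.40 for S100A9 (adjusted p = 3.5e-07), and neither gene was detected on any MIA PaCa-2 array. S100P differed by 0.59 (limma, adjusted p = 0.018) and was likewise measured in Capan-1 alone. S100A8, S100A9 and S100P passed the filter through Capan-1 alone, so their p-values and their part in the count of 6 are no independent support. The S100P value did not pass with median scaling, nor without MIA PaCa-2 shCtrl replicate 2 or either Capan-1 shCtrl array. S100A11 differed by 0.88 (adjusted p = 0.0021), and S100A10 probe 2490195 by 0.49 (adjusted p = 0.04). The S100A10 value did not pass in 13 of 20 alternative settings, and S100A10 probe 540681 did not pass (0.36; limma, adjusted p = 0.13).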

How the results depend on the processing

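None of the 54 S100 probe differences that passed changed direction under any alternative that tested it. Of the 54, 32 passed under each such alternative but the methods' t-test and averaged replicates. The S100A8 differences are among the 32 but were not tested with the stricter filter, since S100A8 was detected on only 4 arrays. With median scaling 2 rather than 4 probes passed for sh1209 in MIA PaCa-2, 4 rather than 7 for sh1209 in Capan-1, 2 rather than 4 for sh1319 in Capan-1 and 4 rather than 7 in the combined knockdown, where all-probe counts were 2243, 2459, 2270 and 4237 (rather than 4365, 4074, 3322 and 6092) and the median of all probes for sh1319 in Capan-1 moved to 0.11. That setting gave 2009 higher and 450 lower of all probes for sh1209 in Capan-1 (against 1971 and 2103), 1936 and 334 for sh1319 there (1682 and 1640), in MIA PaCa-2 2562 and 1284 for sh1319 (2964 and 2923), 3303 and 934 combined (3023 and 3069), 581 and 1253 for the cell line difference (1753 and 1722) and 1206 and 2271 between the hairpins in MIA PaCa-2 (2773 and 2705), and 1217 rather than 2730 differed between the hairpins in Capan-1. Without background correction, and with an offset of 50, 7 rather than 4 differed between the hairpins in Capan-1 (all probes 4063 and 3975, rather than 2730). By the methods' t-test 0 passed in the 4 comparisons with shCtrl and between the hairpins in either line (4, 5, 5, 5, 8 and 3 at an unadjusted p under 0.05), and 6 rather than 11 between the lines (of all probes at most 4, and 3905 between the lines). With replicates averaged first, 0 passed in the combined knockdown and 0 for the cell line difference (0 and 1 unadjusted). The cause was not tested. Without 1 array the counts were 2 to 4 and 6 to 6 for sh1209 and sh1319 in MIA PaCa-2, 4 to 6 and 3 to 4 in Capan-1, 6 to 8 combined, 4 to 6 for the cell line difference, 4 to 5 and 3 to 4 between the hairpins in MIA PaCa-2 and Capan-1, and 10 to 11 between the lines. All-probe counts in Capan-1 fell to 1742 for sh1319 and 2170 for sh1209, and to 2212 for the cell line difference and 1281 between the Capan-1 hairpins at the lowest. All sample titles carry the same array number, followed by a letter. The letters were A to F for replicate 1 and G to L for replicate 2. In every group the median deposited intensity was higher on the replicate 2 array. After quantile normalization, which evens out such a shift, the deviations of same-numbered arrays correlated at -0.061 to 0.16 over 15 pairs of groups. What else these arrays share was not tested. The replicate block removed 1 of 54 calls, S100A10 probe 2490195 with sh1209 in Capan-1. Signal near background limits S100A2, S100A8 and S100A14, and in MIA PaCa-2 S100A9 and S100P.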

Other observations

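SPRR2A and SPRR2D, small proline-rich genes that encode envelope proteins of squamous epithelium and lie on chromosome 1 between S100A11 and S100A9, were higher with sh1209 in Capan-1, while SPRR1A, SPRR1B and SPRR3 did not pass there. SPRR2A rose by 1.82 on the log2 scale (limma, adjusted p = 9.2e-07) and SPRR2D by 2.57 at 1 of its 2 probes (limma, adjusted p = 1.3e-06). Of the 10 tested probes of 9 neighbours, 2 passed higher and 1 lower there (8.14% and 8.69% of all probes), while with sh1319 in Capan-1 and with sh1209 and sh1319 in MIA PaCa-2 0 passed higher and 1, 1 and 2 lower (6.77%, 8.99% and 12.1% of all probes lower), among them SPRR1B with sh1319 in MIA PaCa-2 (-0.72), which did not pass with median scaling. SNAPIN, a component of vesicle trafficking, was lower in all 4 comparisons (-0.63 and -0.61 in Capan-1, -1.30 and -0.85 in MIA PaCa-2), but the first pair did not pass with median scaling. Of 6 fused-type S100 genes, which join an S100 domain to long repeats, TCHH alone was tested and passed in none of the 9 comparisons.

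The 8 epithelial marker genes had 11 tested probes. In Capan-1 4 passed higher with sh1209 (CDH1 by 0.63 and the 3 MUC1 probes by 0.67 to 0.90) and 1 with sh1319 (CEACAM6 by 1.35), and 0 were lower. In MIA PaCa-2 KRT19 fell by 1.44 and 1.47 and, with sh1319, KRT8 by 1.09 and KRT18 by 0.80 at 1 of its 2 probes. Of 4 mesenchymal probes, CDH2 rose in Capan-1 by 0.75 with sh1209 and 1.29 with sh1319, VIM by 0.47 with sh1319, and 0 passed in MIA PaCa-2. Of 5 leukocyte probes, 2 fell with each hairpin in Capan-1, both of LYZ, and 0 passed in MIA PaCa-2. Of all probes in Capan-1, 8.14% passed higher and 8.69% lower with sh1209, and 6.95% and 6.77% with sh1319. In MIA PaCa-2 these shares were 9.05% and 8.99% with sh1209 and 12.2% and 12.1% with sh1319.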
